A study of Mus musculus with 8 samples.

Results

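The comparison set 4 kidney arrays of mice with a Keap1 knockdown (KD) against 4 arrays of wild-type (WT) mice, with injury held constant. It asked which messenger RNAs the knockdown moved the same way in uninjured and in injured kidneys. The members were chosen by the genotype in the sample titles, and they make up all 8 arrays of the series. Each genotype had 2 arrays of normal kidneys and 2 arrays of kidneys after ischemia-reperfusion injury (IRI), so there were 4 groups of 2 arrays: WT normal, KD normal, WT IRI and KD IRI. All samples were left kidneys of male mice aged 16 weeks. For the IRI groups blood flow to the left kidney was stopped with a clamp for 45 minutes, and the organ was taken on day 1 after release. The left kidneys of the normal groups had not been clamped. The labels do not say how the knockdown was made or in which cells it acts, nor whether any arrays share an animal, so a p-value here reflects only how these samples spread.

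KEAP1 is a cytoplasmic adaptor that holds the transcription factor NRF2 (gene Nfe2l2) for ubiquitination by a CUL3 ligase and destruction by the proteasome. When reactive molecules modify KEAP1, or when there is little of it, NRF2 builds up, enters the nucleus and binds antioxidant response elements (AREs) with a small MAF partner. Its known targets make glutathione and NADPH, reduce quinones and carbonyls, conjugate and export foreign compounds and break down heme. In the kidney the pathway is known for protecting tubule cells from oxidative damage after a stop in blood flow.

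Levels are given as the log2 of a probe's intensity over the 75th percentile of its array, and differences are KD minus WT on that log2 scale. Levels of different genes cannot be compared, because each probe has its own brightness. Each array had 43379 spots that were not controls, of which between 62.06% and 67.84% were well above background. Arrays of a group correlated across probes at r = 0.989 to 0.994. The first arrays of the 4 groups lay on one slide and the second arrays on another, so slide and replicate number are the same. The place on the slide was fixed by group, so place and group cannot be told apart. The number of arrays limits the precision. In bulk RNA, fewer cells of a type and less RNA per cell cannot be told apart.

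Keap1, the targeted gene, was lower in every KD array. Its level was 2.76 and 2.69 for WT against 1.51 and 1.40 for KD in uninjured kidneys, and 2.66 and 2.50 against 1.33 and 1.03 in injured ones. The 4 KD arrays all lay below the 4 WT arrays. Averaged over the injury state, Keap1 was lower by 2.52-fold, a log2 difference of -1.33 ± 0.09 (standard error, SE), with an adjusted p of 0.00156. The difference was -1.27 in normal and -1.40 in IRI kidneys, and the interaction did not pass the threshold (adjusted p 0.69). Nfe2l2 itself differed by -0.18 ± 0.08 and did not pass (adjusted p 0.205). Its level was 3.20 and 3.23 (WT) against 2.84 and 3.20 (KD) without injury and 3.42 and 3.42 against 3.27 and 3.24 after it.

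The averaged difference came from an additive limma fit with injury state as covariate and an adjusted p threshold of 0.05 (Benjamini-Hochberg over 20581 genes). It called 1267 genes (6.16%), 571 higher in KD (2.77%) and 696 lower (3.38%). In normal kidneys alone 3116 genes passed (15.1%, 5.81% higher and 9.33% lower), and in IRI kidneys alone 1452 (7.06%, 3.64% higher and 3.41% lower). In all 1267, both KD arrays lay beyond both WT arrays in the normal and in the IRI state, the same way. The difference was therefore also in that direction within each slide and state. Without the call, 23.8% of all genes tested met this separation the same way in both states (9.76% higher, 14% lower), and 14.5% were separated in opposite ways. Of the called genes, 494 had all 4 KD arrays beyond all 4 WT arrays, 186 differed by 2-fold or more (84 higher, 102 lower), and 345 also passed in each state singly (0.889% of all genes higher, 0.787% lower). An interaction, a knockdown difference that was unequal in the 2 states, was found in 42 of them and in 6.48% of all genes. The additive fit used these same arrays and counts unequal differences as error. The separation and the interaction count of the called genes are therefore not independent of the call and are no separate evidence. The median difference over all genes tested was -0.05.

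**Figure D1:**
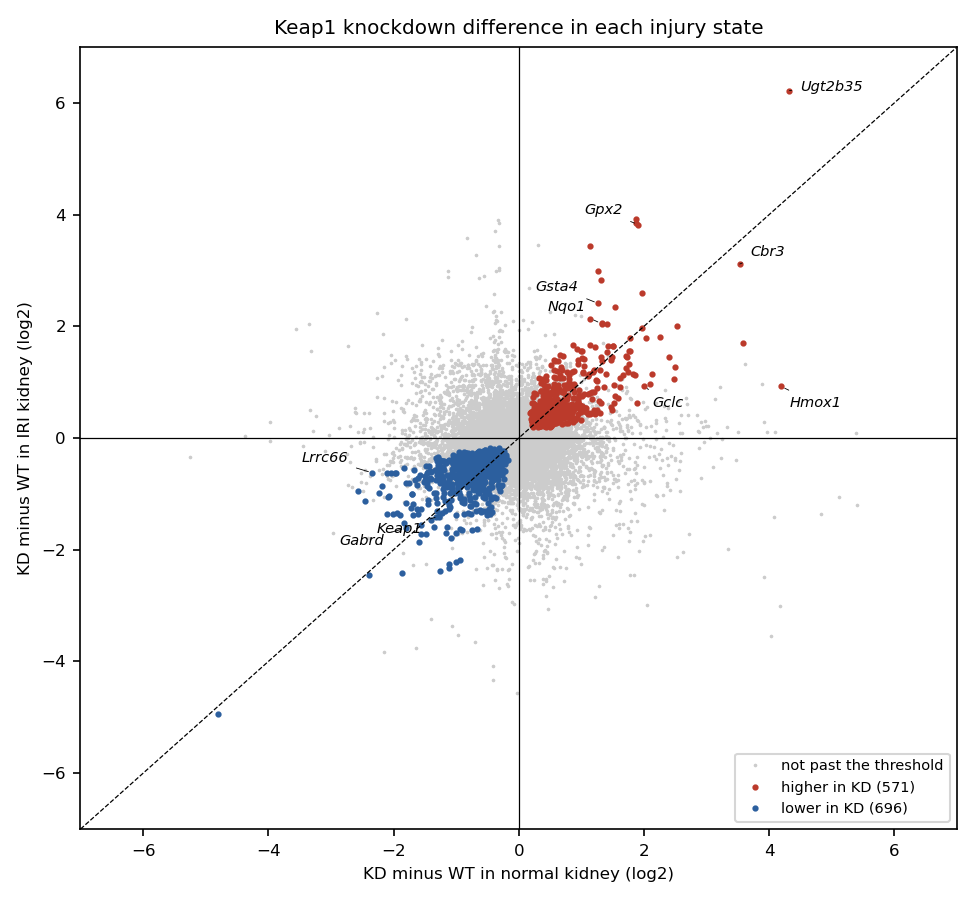
The KD minus WT difference in IRI kidneys (vertical axis, log2) against that in normal kidneys (horizontal axis, log2), with a point for each of 20581 genes. The 571 genes called higher in KD lie in the upper right quadrant and the 696 called lower in the lower left, and Hmox1 lies far below the dashed line of equal differences.

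How many genes were called depended on single arrays. The count was 91 without WT normal replicate 1, 86 without WT normal replicate 2, 490 without KD normal replicate 1, 653 without KD normal replicate 2 and 606 without WT IRI replicate 1. It was 1304 without WT IRI replicate 2, 184 without KD IRI replicate 1 and 236 without KD IRI replicate 2. With slide as a block it was 902, of which 829 were among the 1267. A group of 77 genes, 46 higher and 31 lower, passed in the full fit and in all 8 fits with 1 array left out, and all 77 also passed with slide as a block. Such genes are described below as held with any 1 array left out. Other named genes lost their call in at least 1 of these fits. For gene lists the count without an array is given where it moved by over 1.5 times. Each list count is to be read against the share of all genes tested. On average that share was 2.77% higher and 3.38% lower. In normal kidneys alone it was 5.81% higher and 9.33% lower, and in IRI kidneys alone 3.64% and 3.41%. The interaction passed in 6.48%.

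Over 9 lists of antioxidant, conjugation and export genes, 38 of 131 measured genes rose (29%, against 2.77% of all genes tested) and 3 fell (2.29%, against 3.38%). Of these 131 genes, 18 held with any 1 array left out. The lists and their members were chosen with earlier results of these data known, so the shares are a description.

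Promoters of some risen genes carry the core letters of an ARE near the start of the gene, and 4 are shown here to place the motif. The sequences are the 300 bases around the start in RefSeq (GRCm38.p6), 5′ to 3′ on the strand of the gene, and capitals mark matches to the core TGACNNNGC on either strand. Txnrd1, thioredoxin reductase, is read from chr10:82858956-82859255 (plus strand), with the match starting 92 bases before the start. Gclm, the modifier subunit of glutamate-cysteine ligase, is read from chr3:122245307-122245606 (plus strand), with the match 134 bases before it. Ugdh, which makes UDP-glucuronic acid, is read from chr5:65435793-65436092 (minus strand) and holds 2 matches, the first 132 bases before the start. Pir, pirin, is read from chrX:164269181-164269480 (plus strand) and holds 2 matches, of which 1 overlaps an AP-1 site, TGANTCA.
Txnrd1: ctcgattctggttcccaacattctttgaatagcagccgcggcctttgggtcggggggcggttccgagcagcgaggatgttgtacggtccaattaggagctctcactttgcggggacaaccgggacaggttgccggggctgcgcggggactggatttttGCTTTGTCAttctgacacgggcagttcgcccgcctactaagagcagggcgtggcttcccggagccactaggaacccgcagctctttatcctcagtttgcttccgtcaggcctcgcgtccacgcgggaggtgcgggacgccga
Gclm: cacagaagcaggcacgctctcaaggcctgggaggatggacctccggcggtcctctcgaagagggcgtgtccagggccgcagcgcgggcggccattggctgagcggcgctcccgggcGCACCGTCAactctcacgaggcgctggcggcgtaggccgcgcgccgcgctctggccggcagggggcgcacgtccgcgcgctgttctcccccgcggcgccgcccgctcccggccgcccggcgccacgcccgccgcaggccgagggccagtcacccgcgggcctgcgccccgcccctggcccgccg
Ugdh: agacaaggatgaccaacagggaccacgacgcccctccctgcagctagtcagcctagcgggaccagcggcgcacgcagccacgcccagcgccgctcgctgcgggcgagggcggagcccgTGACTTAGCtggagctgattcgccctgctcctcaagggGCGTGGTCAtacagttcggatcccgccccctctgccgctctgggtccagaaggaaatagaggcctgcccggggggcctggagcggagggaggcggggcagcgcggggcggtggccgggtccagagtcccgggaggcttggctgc
Pir: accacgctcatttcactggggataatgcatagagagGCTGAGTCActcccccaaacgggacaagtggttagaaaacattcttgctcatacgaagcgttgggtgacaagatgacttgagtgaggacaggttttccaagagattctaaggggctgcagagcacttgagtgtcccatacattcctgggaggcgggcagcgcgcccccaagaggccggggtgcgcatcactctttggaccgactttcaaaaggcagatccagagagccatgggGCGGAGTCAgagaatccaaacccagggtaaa
Among risen genes with a promoter in the table, 75 of 390 held a match (19.2%), against 64 of 392 fallen genes (16.3%) and 16.5% of all genes tested. For genes that rose by 2-fold or more the share was 13 of 52 (25%), and for genes that fell by 2-fold or more 9 of 50 (18%). A match is only a run of letters in this window and does not show that a factor binds there.

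Of 22 measured quinone, carbonyl and aldo-keto reductases 5 rose and none fell, and the median was 0.06. Cbr3, a carbonyl reductase, stood at 0.41 and 0.39 for WT against 4.09 and 3.77 for KD in uninjured kidneys, and 2.89 and 3.02 against 6.29 and 5.85 in injured ones. Every KD array lay above every WT array. Cbr3 was higher by 10-fold, a log2 difference of 3.32 ± 0.14 (adjusted p 0.000295), and it had the largest rise of the named genes that were measured in every group. Nqo1, the quinone reductase most used as a readout of NRF2, stood at 1.91 and 2.06 (WT) against 3.31 and 3.30 (KD) without injury and 1.87 and 2.07 against 4.15 and 3.88 after it. The WT arrays of both states were alike, and all 4 KD arrays were above them. Nqo1 rose by 1.69 ± 0.15, or 3.22-fold (adjusted p 0.00462).

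Of the 5 risen members 3 were aldo-keto reductases. Akr1b8, which reduces aldehydes, stood at 1.91 and 1.88 for WT against 4.01 and 4.59 for KD in uninjured kidneys, and 4.97 and 5.54 against 6.69 and 6.72 in injured ones. The groups of a state did not overlap, but WT IRI lay above KD normal. The averaged rise of Akr1b8 was 1.93 ± 0.23 (adjusted p 0.00988). Akr1c19 rose by 1.07 ± 0.16, more in IRI (1.48) than in normal kidneys (0.66), and its interaction passed (adjusted p 0.0216). Akr1b3, aldose reductase, rose by 0.77 ± 0.12. Akr1e1 ran the other way, at -1.88 in normal and -0.08 in IRI kidneys, and did not pass on average (-0.98, adjusted p 0.17). The count of risen members of the list was 3 without WT normal replicate 1 or KD IRI replicate 1 and 2 without WT normal replicate 2. Cbr3 and Nqo1 held with any 1 array left out. Pir, an iron-containing quercetin oxidase named after its values were seen, rose by 1.42 ± 0.15 and held as well.

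**Figure D2:**
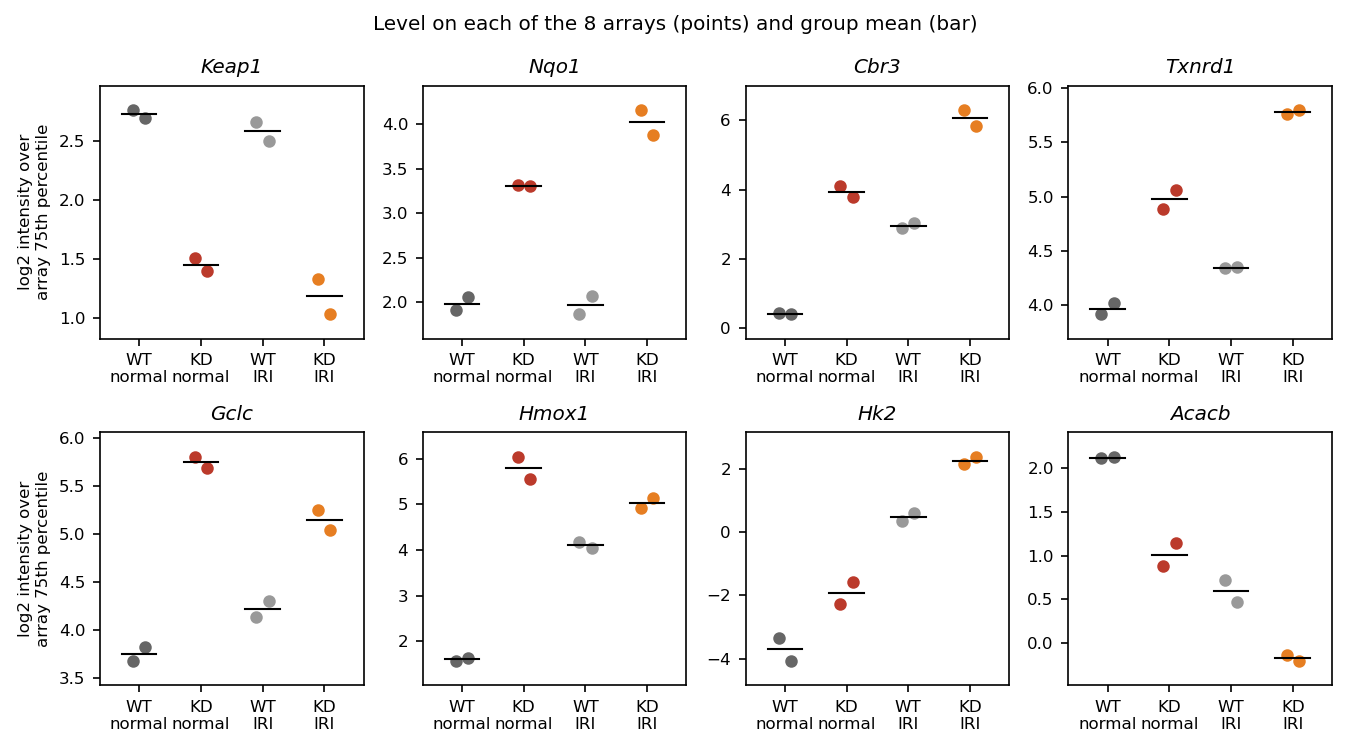
Level on each of the 8 arrays (points; vertical axis, log2 intensity over the array's 75th percentile) with the group mean as a bar, for Keap1 and 7 genes that changed. The KD arrays of Nqo1, Cbr3, Txnrd1 and Gclc lie above, and those of Keap1 below, the WT arrays of both states, and the KD arrays of Acacb lie below the WT arrays within each state.

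Messenger RNAs of the rate-limiting enzyme of glutathione synthesis were higher in KD on average. Gclc, the catalytic subunit of glutamate-cysteine ligase, stood at 3.68 and 3.82 (WT) against 5.81 and 5.69 (KD) without injury and 4.14 and 4.30 against 5.25 and 5.05 after it. All KD arrays were above all WT arrays, and the KD normal arrays were the highest. The averaged rise of Gclc was 1.46 ± 0.21 (adjusted p 0.0146), made of 2.00 in normal and 0.93 in IRI kidneys, and the interaction passed (adjusted p 0.0193). Gclm, its modifier subunit, rose by 0.64 ± 0.09, by 0.61 in normal and 0.68 in IRI. Gss, glutathione synthetase, rose by 0.53 ± 0.10 and Gsr, which reduces oxidised glutathione, by 0.60 ± 0.10.

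Of 14 measured glutathione synthesis genes these 4 rose. Dpep1, a dipeptidase that breaks down glutathione products, was the 1 that fell, by 0.44 on the log2 scale. The median over the list was 0.03. The count of risen members was 0 without WT normal replicate 1 or 2, 2 without KD IRI replicate 1 and 3 or 4 without any other array. Slc7a11, the cystine carrier, differed by 1.59 ± 0.46 and did not pass (adjusted p 0.0847). All IRI arrays detected it over background, but only 1 of the 4 normal arrays did.

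Glutathione S-transferases, which attach glutathione to reactive compounds, were the list with the largest share of rises. Of 22 measured members 10 rose and none fell, and the median difference was 0.59. Gsta4, which conjugates 4-hydroxynonenal, stood at -0.39 and -0.39 for WT against 0.86 and 0.89 for KD in uninjured kidneys, and 0.48 and 0.68 against 3.05 and 2.93 in injured ones. All KD arrays of Gsta4 lay above all WT arrays. It rose by 1.84 ± 0.22 (adjusted p 0.00969), with 1.27 in normal and 2.41 in IRI kidneys and an interaction that passed (adjusted p 0.0158).

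Gstm3 stood at 5.43 and 5.61 (WT) against 7.02 and 6.98 (KD) without injury and 4.63 and 4.45 against 6.05 and 5.82 after it. Both KD groups were above both WT groups, and the rise of 1.43 ± 0.08 was of like size in the 2 states (1.48 and 1.39). Gsta3 rose by 1.17 ± 0.09, Gstm1 by 1.14 ± 0.08 and Gstp1 by 0.87 ± 0.08. Gsta1 and Gsta2 rose by 1.07 and 1.14, but they are near-identical copies whose probes may share signal, so they are uncertain as separate results, as are the mu-class members. Gsta4, Gstm3, Gsta3, Gstm1, Gstp1, Gsta1 and Gsta2 held with any 1 array left out. Smaller rises were those of Mgst2 (0.89), Gstm2 (0.72) and Mgst1 (0.65), and the lowest count of risen members with an array left out was 7. Gsto1 differed by 0.59 and did not pass (adjusted p 0.0537).

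Of 7 measured glutathione peroxidases 1 rose. Gpx2, a peroxidase best known from gut epithelium, stood at -3.67 and -3.77 for WT against -2.13 and -1.49 for KD in uninjured kidneys, and -3.45 and -3.09 against 0.32 and 0.77 in injured ones. Every KD array was above every WT array, and the KD IRI arrays were the highest. The averaged rise of Gpx2 was 2.86 ± 0.39 (adjusted p 0.0138), 1.91 in normal and 3.82 in IRI kidneys, with an interaction that passed (adjusted p 0.0336). Without KD IRI replicate 1 its adjusted p was 0.0519. Gpx3, the secreted form made by the proximal tubule, differed by -0.21 and did not pass (adjusted p 0.18).

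Genes of the thioredoxin system, which keeps protein thiols reduced, rose in part. Txnrd1, whose promoter is printed above, stood at 3.92 and 4.02 (WT) against 4.88 and 5.07 (KD) without injury and 4.34 and 4.35 against 5.77 and 5.80 after it. Its KD arrays were all above its WT arrays, and it rose by 1.22 ± 0.10 (adjusted p 0.00286). Srxn1, sulfiredoxin, which repairs overoxidised peroxiredoxins, stood at 2.95 and 3.13 for WT against 4.64 and 5.10 for KD in uninjured kidneys, and 4.59 and 4.89 against 5.93 and 5.83 in injured ones. KD normal and WT IRI overlapped for Srxn1, while the genotypes were apart within each state. It rose by 1.49 ± 0.17 (adjusted p 0.00918).

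Txn1, thioredoxin, rose by 0.35 ± 0.06, Prdx1 by 0.40 ± 0.05 and Prdx6 by 0.45 ± 0.07, which are changes under 1.5-fold. Osgin1, an oxidative stress-induced growth inhibitor, rose by 0.83 ± 0.19, and its call was lost with slide as a block (adjusted p 0.0613). Altogether 6 of 19 measured members rose and none fell. Txnrd1 and Srxn1 held with any 1 array left out, and they were the 2 members that rose without WT normal replicate 1 or 2 or KD IRI replicate 1. The count was 4 without KD normal replicate 1 or KD IRI replicate 2. Txnip, an inhibitor of thioredoxin, differed by -0.75 and did not pass (adjusted p 0.0992).

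NADPH, which both systems consume, is made largely by the pentose phosphate pathway, and 4 of 13 measured NADPH genes rose. G6pdx, the first enzyme of that pathway, stood at 1.82 and 1.87 (WT) against 2.50 and 2.62 (KD) without injury and 2.68 and 2.93 against 3.65 and 3.60 after it. It rose by 0.77 ± 0.07 (adjusted p 0.00616), by 0.71 in normal and 0.82 in IRI. Pgd, the third enzyme, rose by 0.97 ± 0.09 and Tkt, transketolase, by 0.55 ± 0.06. These 3 genes held with any 1 array left out, but Tkt lost its call with normexp background correction.

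G6pd2, a retrotransposed copy of G6pdx, was not well above background on either WT normal array. Averaged over states it was at least 1.78-fold higher in KD (adjusted p 0.0194), and the probes of the 2 copies may share signal. The call of G6pd2 was lost with normexp background correction. It was also lost without either WT normal array, WT IRI replicate 1 or either KD IRI array. Its smallest difference among the alternatives run was 0.31 on the log2 scale, so the bound holds for the main processing only. A value "at least" sets the brighter mean against, for each dim array, the weakest signal still called above background there or the probe's own signal, whichever was higher. Me3, a mitochondrial malic enzyme, fell by 0.71 on the log2 scale, a call that was lost without 5 of the 8 arrays, both of WT normal, both of KD IRI and WT IRI replicate 1. Idh1, which makes NADPH in the cytosol, differed by 0.87 in normal and -0.09 in IRI kidneys and did not pass on average (adjusted p 0.262).

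Of 12 measured glucuronidation genes 2 rose and none fell, with a median of -0.06. Ugdh stood at 3.20 and 3.08 for WT against 4.14 and 4.18 for KD in uninjured kidneys, and 3.32 and 3.53 against 4.74 and 4.43 in injured ones, with all KD arrays above all WT arrays. It rose by 1.09 ± 0.09 (adjusted p 0.00307). Ugt2b35, a UDP-glucuronosyltransferase, was not well above background on any WT array and was so on every KD array. Its level was -2.80 and -2.50 in KD normal and -1.80 and -1.83 in KD IRI. Averaged over states Ugt2b35 was at least 9.81-fold higher in KD (adjusted p 0.00204). The call of Ugt2b35 was lost with normexp background correction (adjusted p 0.0981). Its smallest difference among the alternatives run was 1.77 on the log2 scale, so the bound holds for the main processing only. Ugdh and Ugt2b35 were the 2 risen members, and their number was not lower without any array.

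Abcc4, an export pump for conjugates and cyclic nucleotides, stood at 1.24 and 1.35 (WT) against 3.07 and 2.93 (KD) without injury and 2.10 and 2.20 against 3.75 and 3.49 after it. Its KD arrays all lay above its WT arrays, and it rose by 1.59 ± 0.09 (adjusted p 0.000871). Abcc3, a related pump, stood at -2.51 and -2.50 for WT against -1.59 and -1.40 for KD in uninjured kidneys, and -0.53 and -0.30 against 1.03 and 1.26 in injured ones. Injury moved its level as well, so that WT IRI lay above KD normal, and the averaged rise of Abcc3 was 1.29 ± 0.13 (adjusted p 0.00775). Both pumps held with any 1 array left out. Of 10 measured export pumps these 2 rose and Abcc6 fell, by 0.92 on the log2 scale. The call of Abcc6 was lost with slide as a block (adjusted p 0.0575) and without each of the 8 arrays. Abcc1 differed by 0.54 and did not pass (adjusted p 0.135).

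Among genes of heme breakdown, the rise of Hmox1 was unequal in the 2 states. Hmox1, heme oxygenase 1, stood at 1.58 and 1.63 (WT) against 6.04 and 5.55 (KD) without injury and 4.18 and 4.04 against 4.91 and 5.15 after it. The KD arrays were above the WT arrays, and the highest level was that of uninjured KD kidneys. The averaged rise of Hmox1 was 2.56 ± 0.60 with an adjusted p of 0.0498, made of 4.19 ± 0.16 in normal and 0.93 ± 0.16 in IRI kidneys, and the interaction passed (adjusted p 0.00559). An additive fit counts such inequality as error, and the call was lost with slide as a block (adjusted p 0.0757) and without each of the 8 arrays.

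Of 12 measured heme and iron genes 4 rose and none fell. Blvrb, a biliverdin reductase, rose by 0.74 ± 0.14, Slc40a1, the iron exporter ferroportin, by 0.73 ± 0.10, and Slc48a1, a heme carrier, by 0.48 ± 0.11. With slide as a block Blvrb and Slc48a1 did not pass (adjusted p 0.0508 and 0.0638). The count was 0 without WT normal replicate 1 or 2 or KD IRI replicate 2, 1 without KD normal replicate 1, WT IRI replicate 1 or KD IRI replicate 1, and 2 without WT IRI replicate 2. The ferritin subunits Fth1 and Ftl1, named after their values were seen, differed by 0.10 and 0.16 and did not pass (adjusted p 0.236 and 0.374).

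**Figure D3:**
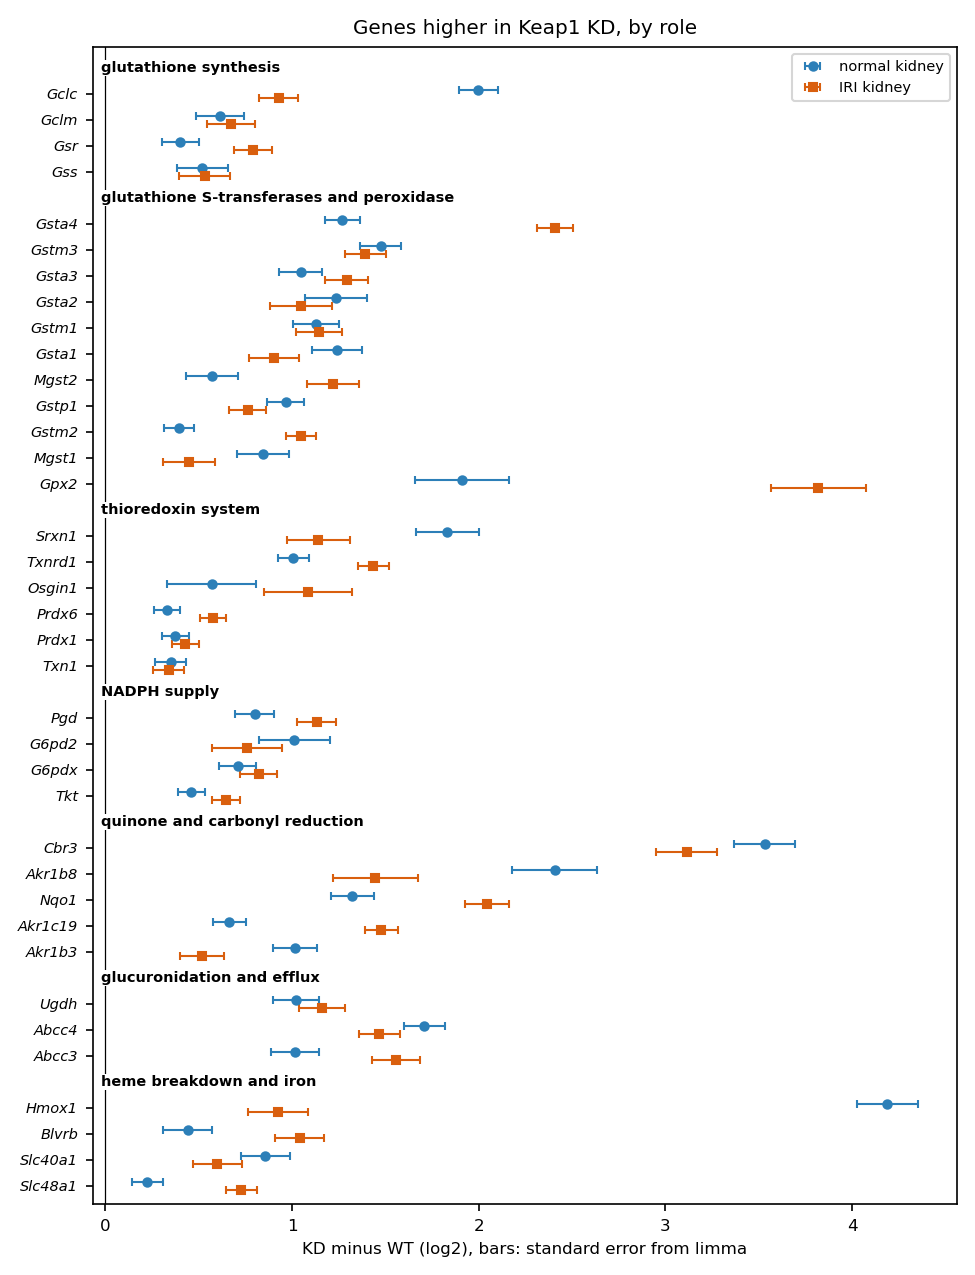
KD minus WT (horizontal axis, log2) in normal kidneys (circles) and IRI kidneys (squares) for 37 risen genes grouped by role, with bars of 1 standard error from limma. All points lie right of 0, Gpx2 and Gsta4 lie further right in IRI, and Hmox1 and Gclc in normal kidneys.

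Regulators of NRF2 changed little apart from Keap1. Of 17 measured, 2 rose and 1, Keap1, fell, and the median was 0.12. Sqstm1, the autophagy adaptor p62 that binds KEAP1, rose by 0.54 ± 0.09 (adjusted p 0.0214). Pgam5, a mitochondrial phosphatase that binds KEAP1, rose by 0.46 ± 0.07 (adjusted p 0.0187). Neither rose without WT normal replicate 1 or 2, KD normal replicate 1 or KD IRI replicate 1, and 1 of them without WT IRI replicate 1 or KD IRI replicate 2. Maff, a small MAF partner, differed by 2.11 in normal and 0.22 in IRI kidneys and did not pass on average (adjusted p 0.127).

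Aldehyde oxidases, carboxylesterases and sulfotransferases were mixed. Aox1, aldehyde oxidase, stood at -3.33 and -3.73 for WT against -1.57 and -1.93 for KD in uninjured kidneys, and -1.88 and -1.99 against -0.35 and -0.42 in injured ones. It rose by 1.66 ± 0.13 (adjusted p 0.0026), by 1.77 in normal and 1.55 in IRI, and held with any 1 array left out. Ces1g, a carboxylesterase, rose by 2.08 ± 0.48 (adjusted p 0.0485) with wide spread between arrays, at 4.0 and 2.59 in KD normal and 2.48 and 1.09 in KD IRI. Its call was lost without 7 of the 8 arrays, all but WT IRI replicate 2. In all, 3 of 20 measured members rose and 1, Ces2g, fell, by 0.57 on the log2 scale. The call of Ces2g was lost with slide as a block (adjusted p 0.0585). Only 1 member rose without WT normal replicate 1 or 2, WT IRI replicate 1 or KD IRI replicate 1 or 2.

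Of 18 measured aldehyde dehydrogenases none rose (against 2.77% of all genes tested). The 1 that fell (against 3.38%) was Aldh1l2, a mitochondrial enzyme of folate metabolism. On neither KD normal array was it detected over background, and it stood at -3.93 and -3.85 in WT normal, and after injury at -2.14 and -2.07 in WT against -3.18 and -3.44 in KD. Averaged over states Aldh1l2 was at least 2.23-fold lower in KD (adjusted p 0.00562), and the call held with any 1 array left out. It was lost with normexp background correction, where the difference was -0.49 (adjusted p 0.939). A second probe for it differed by -0.26. Aldh1a1, which makes retinoic acid, differed by 1.40 ± 0.43 and did not pass (adjusted p 0.0925), with KD normal arrays at 2.96 and 1.30.

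Of 32 measured cytochrome P450 and flavin monooxygenase genes 4 fell and 2 rose. In normal kidneys alone 4 passed as higher and 4 as lower (median 0.08), against 5.81% and 9.33% of all genes tested. In IRI kidneys alone 1 passed as higher and 10 as lower (median -0.56), against 3.64% and 3.41%. Cyp26b1, which degrades retinoic acid, fell by 1.76 on the log2 scale (SE 0.38), from 1.37 and 1.64 in WT normal to -0.67 and -1.44 in KD normal and from 0.64 and 1.66 in WT IRI to 0.15 and 0.24 in KD IRI. The arrays of a state did not overlap, but the call of Cyp26b1 was lost with slide as a block (adjusted p 0.0634). Cyp4a10, a fatty acid hydroxylase, fell by 1.08 on the log2 scale, Cyp2s1 by 0.80 and Cyp2j9 by 0.66. Cyp1a1 and Cyp7b1 rose by 0.86 and 0.77. Without WT normal replicate 1 or KD IRI replicate 1 only 1 member of this list fell, without WT normal replicate 2 none, and none rose without these 3 arrays or KD normal replicate 1.

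Genes of fatty acid oxidation fell in part. Of 24 measured mitochondrial members 5 fell (against 3.38% of all genes tested) and none rose, and the median was -0.29. In normal kidneys alone 1 passed as lower (median -0.17), against 9.33% of all genes tested. In IRI kidneys alone 8 did (median -0.47), against 3.41%. Cpt1a, the entry step of long-chain fatty acids into mitochondria, stood at 4.21 and 4.15 for WT against 3.88 and 3.78 for KD in uninjured kidneys, and 3.35 and 3.66 against 2.94 and 2.78 in injured ones. Genotypes were apart within each state, and Cpt1a fell by 0.50 on the log2 scale (SE 0.10, adjusted p 0.032). Acaa2 fell by 0.49, Eci2 by 0.34, Hadha by 0.30 and Acadl by 0.29. With slide as a block the calls of Cpt1a, Eci2, Hadha and Acadl were lost (adjusted p 0.0521, 0.0609, 0.0503 and 0.0556). Without WT normal replicate 1 or 2 or KD IRI replicate 1 or 2 none fell, without KD normal replicate 1 the count was 1, and without each of the other arrays it was 2.

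Of 21 measured peroxisomal genes 3 fell and none rose, with a median of -0.33. In normal kidneys alone 2 of them passed as higher and 1 as lower (median -0.08), against 5.81% and 9.33% of all genes tested. In IRI kidneys alone 10 passed as lower (median -0.53), against 3.41%. An interaction passed for 7, against 6.48%. Acot3, a peroxisomal acyl-CoA thioesterase, stood at -1.18 and -1.29 (WT) against -2.35 and -3.33 (KD) without injury and -2.95 and -3.03 against -4.38 and -4.32 after it. It fell by 1.48 on the log2 scale (SE 0.20, adjusted p 0.0143). Acaa1b, a peroxisomal thiolase, fell by 0.64 and Decr2 by 0.56, the latter not with slide as a block (adjusted p 0.0655). None of the list fell without WT normal replicate 1 or 2 or KD IRI replicate 1, and 1 without WT IRI replicate 1 or KD IRI replicate 2.

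Further genes of lipid handling fell. Acacb, which makes the malonyl-CoA that restrains Cpt1a, stood at 2.12 and 2.13 for WT against 0.88 and 1.14 for KD in uninjured kidneys, and 0.72 and 0.46 against -0.14 and -0.20 in injured ones. It fell by 0.94 on the log2 scale (SE 0.11, adjusted p 0.00918) and held with any 1 array left out. Acot1, a cytosolic acyl-CoA thioesterase, and Fabp1, a fatty acid binding protein, both named after their values were seen, fell by 1.28 and 1.06. Acot1 lost its call without 2 arrays and Fabp1 without 7.

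Cyp4a14, Pdk4 and Ppara, the receptor that drives many of these genes, did not pass on average. Ppara differed by 0.26 in normal and -1.22 in IRI kidneys (averaged adjusted p 0.391) and was named after its values were seen. Cyp4a14 differed by -1.98 ± 0.55 (adjusted p 0.074) with WT IRI arrays at 0.61 and 3.24, and Pdk4 by -1.14 ± 0.44 (adjusted p 0.154). Fasn, fatty acid synthase, rose by 0.32, which was lost with slide as a block (adjusted p 0.0698) and without each of the 8 arrays. None of 22 cholesterol genes and none of 24 genes of the TCA cycle and oxidative phosphorylation was called on average, against 6.16% of all genes tested. Within single states, 1 cholesterol gene passed as higher in normal and 1 in IRI kidneys. In normal kidneys alone 2 genes of the TCA cycle and oxidative phosphorylation list passed as higher.

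Some segment markers of the distal nephron fell. Of 14 measured markers of the loop and distal tubule 5 fell and none rose, with a median of -0.47. Of 18 collecting duct markers 4 fell and none rose, with a median of -0.35. Slc12a3, the thiazide-sensitive sodium chloride carrier, stood at 4.05 and 3.99 (WT) against 3.30 and 3.1 (KD) without injury and 2.80 and 3.03 against 2.57 and 2.54 after it. It was lower in KD within each state by 0.59 on average (SE 0.11, adjusted p 0.029). Slc8a1, a sodium-calcium exchanger, fell by 0.96, Trpm6, a magnesium channel, by 0.93, Calb1, a calcium buffer, by 0.55 and Wnk4, a kinase that controls Slc12a3, by 0.50.

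In the collecting duct, Scnn1b and Scnn1g, subunits of the epithelial sodium channel, fell by 0.67 and 0.49, Slc26a4, the chloride-bicarbonate exchanger pendrin, by 0.62 and Atp6v0d2, a proton pump subunit, by 0.60. Scnn1b stood at 0.96 and 0.94 for WT against 0.01 and 0.19 for KD in uninjured kidneys, and 0.38 and 0.38 against -0.19 and -0.02 in injured ones. All KD arrays of Scnn1b were below all WT arrays. With slide as a block Trpm6, Calb1, Wnk4 and Scnn1g did not pass (adjusted p 0.0558, 0.0517, 0.0529 and 0.0604).

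None of these 9 markers held with any 1 array left out. Without WT normal replicate 1 or 2 or KD IRI replicate 1 none of either list fell. Without KD normal replicate 1 none of the loop and distal tubule list and 1 of the collecting duct list fell, and without KD IRI replicate 2 these counts were 0 and 2. Without KD normal replicate 2 they were 2 and 2, and without WT IRI replicate 1 they were 2 and 3. The summed linear level of the 14 loop and distal tubule markers, in units of the array's 75th percentile, was 513 to 532 (WT) and 413 to 428 (KD) without injury and 241 to 276 (WT) and 223 to 238 (KD) after it. For the 18 collecting duct markers it was 126 to 134, 123 to 145, 84.5 to 91.2 and 71.4 to 77.7 in the same order, so the normal groups overlapped. Aqp2, the water channel of principal cells, named after its values were seen, differed by 0.53 ± 0.40 and did not pass (adjusted p 0.439).

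Among 29 measured proximal tubule markers 1 fell (against 3.38% of all genes tested), Slc5a2, the glucose carrier SGLT2, by 0.27. Its call was lost with slide as a block (adjusted p 0.0665). The summed level of the list was 1820 on both WT normal arrays, 1880 to 2000 in KD normal, 570 to 783 in WT IRI and 455 to 581 in KD IRI. Lrp2 and Umod, which mark the proximal tubule and the thick ascending limb, were well above background on all arrays, and their differences of -0.12 and -0.18 did not pass. None of 12 podocyte, 15 endothelial, 8 neutrophil, 16 macrophage and 9 lymphocyte markers was called on average, although some summed levels differed. The podocyte sum was 104 to 202 (WT) and 35.6 to 48.2 (KD) without injury and 19.9 to 22 (WT) and 15.3 to 15.8 (KD) after it, lower in KD in both states. The brightest probes weigh most in such a sum, and the median podocyte marker differed by 0.19 in normal and -0.21 in IRI kidneys. In normal kidneys alone 2 podocyte markers passed as higher and 1 as lower, and in IRI kidneys alone 2 passed as lower. Synpo, synaptopodin of the podocyte, named after its values were seen, differed by -1.78 and did not pass (adjusted p 0.062). The endothelial sum was 78.7 to 81.3 (WT) and 72.2 to 75.6 (KD) without injury and 86.8 to 96.1 (WT) and 75.4 to 85.3 (KD) after it, also lower in KD in both states. The median endothelial marker, however, differed by only -0.10 in normal and -0.004 in IRI kidneys. In normal kidneys alone no endothelial marker passed, and in IRI kidneys alone 1 passed as lower. The neutrophil sum was 0.317 to 0.321 (WT) and 0.786 to 6.23 (KD) without injury, where 6 of the 8 markers were not well above background in WT, and 49.4 to 106 (WT) and 53.2 to 59.1 (KD) after it. The macrophage sum was 61.8 to 65.6 (WT) and 68.4 to 69.6 (KD) without injury and 88.4 to 111 (WT) and 86.6 to 102 (KD) after it. Without injury the lymphocyte sum was 0.905 to 0.924 (WT) and 0.303 to 0.515 (KD). After injury that sum was 0.343 to 0.57 (WT) and 0.469 to 0.51 (KD). In normal kidneys alone 3 of the 9 lymphocyte markers passed as lower (median -1.08), against 9.33% of all genes tested. In IRI kidneys alone none passed (median 0.45). In KD normal, 2 of the 9 were not well above background. The part of these cell types in the results was not tested. Klk1, tissue kallikrein of the connecting tubule, fell by 0.49, and its call was lost without WT normal replicate 1 or 2 or KD IRI replicate 1.

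**Figure D4:**
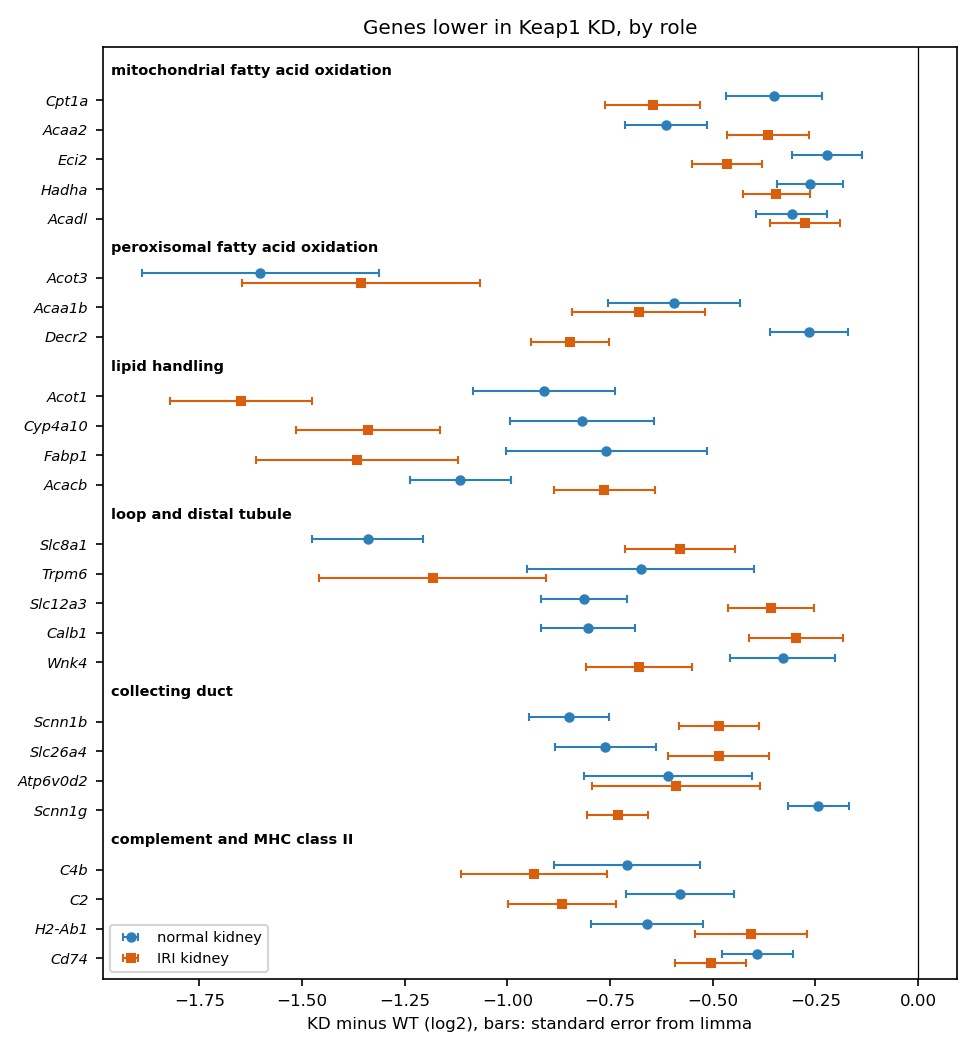
KD minus WT (horizontal axis, log2) in normal kidneys (circles) and IRI kidneys (squares) for 25 fallen genes grouped by role, with bars of 1 standard error from limma. All points lie between -2 and 0.

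Of 15 measured complement genes 2 fell and none rose, with a median of -0.12. C4b stood at -0.75 and -0.84 (WT) against -1.75 and -1.26 (KD) without injury and -0.86 and -0.81 against -1.62 and -1.92 after it, so all KD arrays were below all WT arrays. It fell by 0.82 on the log2 scale (SE 0.13, adjusted p 0.0188), and C2, which with C4b forms the classical C3 convertase, fell by 0.72. Neither fell without WT normal replicate 1 or 2, and 1 without KD IRI replicate 1 or 2. Of 7 measured MHC class II genes H2-Ab1 and the invariant chain Cd74 fell, by 0.53 and 0.45. H2-Ab1 was lost with slide as a block (adjusted p 0.0513), and neither fell without WT normal replicate 1 or 2 or KD IRI replicate 1 or 2. In normal kidneys alone 5 of the 7 class II genes passed as lower (median -0.66), against 9.33% of all genes tested. In IRI kidneys alone 1 did (median -0.19), against 3.41%. Markers of the cells that carry these genes are given above, and their part in the result was not tested. None of 16 interferon-stimulated genes was called on average, and 2 passed as lower in normal kidneys alone.

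Of 16 measured immediate-early genes 4 rose and none fell. In normal kidneys alone 10 of them passed as higher (median 1.02), against 5.81% of all genes tested. In IRI kidneys alone 2 did (median 0.29), against 3.64%. Fosl1, an AP-1 subunit, was not well above background in WT normal, and it stood at -0.81 and -0.52 in WT IRI against 1.09 and 1.51 in KD IRI. Fosl2, Myc and Junb rose by 0.93, 0.90 and 0.69. Egr2 differed by 3.13 in normal and 0.70 in IRI kidneys, and its average did not pass (adjusted p 0.0573). No immediate-early gene rose without WT normal replicate 1 or 2, 1 rose without KD normal replicate 2, WT IRI replicate 1 or KD IRI replicate 2, and 2 without KD normal replicate 1.

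Of 20 heat shock and 20 unfolded protein response genes 3 each rose and none fell. The chaperones Hsph1, Chordc1 and Hspb8 rose by 1.15, 0.97 and 0.88, and the endoplasmic reticulum genes Creld2, Hspa5 and Edem1 by 1.01, 0.70 and 0.40. With slide as a block Hsph1, Hspb8 and Edem1 did not pass (adjusted p 0.0524, 0.0522 and 0.0652). In normal kidneys alone 11 genes of each list passed as higher, against 5.81% of all genes tested. In IRI kidneys alone none did, against 3.64%. In the 40 genes together the median difference was 0.67 in normal and 0.12 in IRI kidneys. No gene of either list rose without WT normal replicate 1 or 2 or KD IRI replicate 2, no unfolded protein gene rose without KD normal replicate 1 or 2 or KD IRI replicate 1, and 1 heat shock gene rose without the last of these. Of 32 proteasome genes 3 rose, Psmd11 by 0.41, Psmd14 by 0.31 and Psmc2 by 0.22. With slide as a block Psmd14 and Psmc2 did not pass (adjusted p 0.0553 and 0.0573). None of these 3 was called when any array but WT IRI replicate 2 was left out, and Psmc2 was not called without that one either.

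Gdf15, a stress-induced hormone, stood at 0.63 and 0.76 for WT against 2.91 and 2.67 for KD in uninjured kidneys, and 2.41 and 2.75 against 3.62 and 3.46 in injured ones. It rose by 1.53 ± 0.23 (adjusted p 0.0165), with 2.09 in normal and 0.96 in IRI kidneys and an interaction that passed (adjusted p 0.0292). Gdf15 was the only riser among 24 p53 target genes, against 2.77% of all genes tested. Its call was lost without WT normal replicate 1 or 2 or KD IRI replicate 1. Of 25 tubule injury genes 1 rose (against 2.77% of all genes tested), Sprr1a, a cornified envelope protein, by 1.26. In normal kidneys alone 7 genes of this list passed as higher (median 0.60), against 5.81% of all genes tested. In IRI kidneys alone 2 did (median 0.30), against 3.64%. No gene of this list rose without WT normal replicate 1 or 2, KD normal replicate 2, WT IRI replicate 1 or KD IRI replicate 1 or 2, and 8 rose without WT IRI replicate 2. Havcr1 (KIM-1) and Lcn2 (NGAL), the usual injury markers, named after their values were seen, differed by 0.83 and 0.09 and did not pass (adjusted p 0.0921 and 0.899).

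Of 25 inflammation genes 3 rose and none fell. Cxcl1, a neutrophil chemokine, stood at -5.37 and -4.87 (WT) against -3.18 and -2.08 (KD) without injury and -1.34 and -0.33 against 0.66 and 0.23 after it. It rose by 1.88 ± 0.37 (adjusted p 0.0332), and was well above background on 1 of 2 WT normal arrays. Il11 rose by 1.28 and Ccl2 by 0.67, the latter not with slide as a block (adjusted p 0.0652). None of the list rose without WT normal replicate 1 or 2, KD normal replicate 1 or KD IRI replicate 1 or 2, and 1 without KD normal replicate 2. Clec4n, a C-type lectin of myeloid cells, rose by 1.66 ± 0.23, a call lost without WT normal replicate 1 or 2.

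Glucose uptake and glycolysis genes rose in 4 of 25 cases, with none lower. Hk2, hexokinase 2, stood at -3.33 and -4.06 for WT against -2.26 and -1.57 for KD in uninjured kidneys, and 0.36 and 0.60 against 2.16 and 2.38 in injured ones. The WT IRI arrays of Hk2 lay above the KD normal arrays, and within each state the KD arrays were higher, by 1.78 in normal and 1.79 in IRI. The averaged rise of Hk2 was 1.78 ± 0.20 (adjusted p 0.00885). Adm, adrenomedullin, rose by 1.13 ± 0.13, and both genes held with any 1 array left out. Slc2a1, the glucose carrier GLUT1, rose by 0.58 and Slc16a3, a lactate carrier, by 0.38, the latter not with slide as a block (adjusted p 0.0541). The count was 2 without WT normal replicate 1 or 2 and 3 without each other array. Of 12 gluconeogenesis and fructose genes Fbp2 and Pck2 fell, by 0.60 and 0.49, and neither fell without WT normal replicate 1 or 2, KD normal replicate 1 or KD IRI replicate 2.

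Several of the largest changes lay outside these lists. Ptchd1, a patched-domain membrane protein, rose by 2.29 ± 0.27 and held with any 1 array left out, and Slc38a3, a glutamine carrier, rose by 1.73 ± 0.23, a call lost without WT normal replicate 1. Krt5, a basal cell keratin, rose by 1.59 ± 0.27, a call lost without WT normal replicate 1 or 2 or KD IRI replicate 2. Gabrd, a GABA receptor subunit, fell by 1.71 on the log2 scale and Atp4a, a proton pump subunit, by 1.60. Crybg2 and Thbs4 fell by 1.48 and 1.45. These 4 falls held with any 1 array left out. With normexp background correction the calls of Ptchd1, Gabrd and Thbs4 were lost, while those of Atp4a and Crybg2 were kept. The smallest differences among the alternatives run were 0.98 for Ptchd1, -0.89 for Gabrd and -0.65 for Thbs4. Nap1l5, Zfp711, Lrrc66, Kcnt1, Cfap65, Zc3h6 and Skor1 fell by between 1.35 (Skor1) and 1.82 (Nap1l5). Normexp background correction lost the calls of Nap1l5, Zfp711, Cfap65 and Skor1 and kept those of Lrrc66, Kcnt1 and Zc3h6. The smallest differences among the alternatives run were -1.16 for Nap1l5, -0.79 for Zfp711, -0.65 for Cfap65 and -0.50 for Skor1. The call of Zc3h6 was lost without WT normal replicate 2, and that of Cfap65 without WT normal replicate 1 or 2. Nap1l5 lost its call without either WT normal or KD IRI array or WT IRI replicate 1, and Zfp711 and Kcnt1 without either WT normal or KD IRI array or KD normal replicate 1. Skor1 kept its call only without KD normal replicate 1 or WT IRI replicate 2, and Lrrc66 only without WT IRI replicate 2. Lrrc66 was also lost with slide as a block (adjusted p 0.0643).

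Atp4a stood at 0.57 and 0.64 (WT) against -0.83 and -0.90 (KD) without injury and -2.02 and -2.53 against -3.67 and -4.32 after it. Gabrd stood at -2.57 and -2.36 for WT against -4.44 and -4.10 for KD in uninjured kidneys, and -3.69 and -3.00 against -5.14 and -4.78 in injured ones. In both genes the WT IRI arrays lay below the WT normal arrays, and the genotypes were apart within each state. Ppp2r2c was at least 4.53-fold and Eid3 at least 3.04-fold higher in KD, and Sectm1a was at least 2.88-fold and Lrrc34 at least 2.70-fold lower, since in at least 1 group neither array detected it over background. The calls of all these genes were lost with normexp background correction. Their smallest differences among the alternatives run were 0.81 (Ppp2r2c), 0.57 (Eid3), -0.78 (Sectm1a) and -0.70 (Lrrc34) on the log2 scale. These bounds therefore hold for the main processing only. Lrrc34 lost its call without WT normal replicate 1 or 2, and Sectm1a also without WT IRI replicate 1 or either KD IRI array. Eid3 kept its call only without KD normal replicate 2 or WT IRI replicate 2, and Ppp2r2c only without the latter.

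Other genes that held with any 1 array left out were named after their values were seen. The additive fit counts unequal differences as error, so likeness of the 2 states in such genes is no separate evidence. Fetub, fetuin B, stood at -1.95 and -1.97 (WT) against -0.61 and -0.31 (KD) without injury and -1.85 and -1.87 against -0.29 and -0.15 after it. The WT arrays of both states were alike, and Fetub was higher in KD by 1.57 ± 0.09 (adjusted p 0.000871). Mest, an imprinted gene of the hydrolase family, rose by 1.53 ± 0.13 and Plaur, the urokinase receptor, by 1.54 ± 0.14. Nrg1, neuregulin 1, rose by 1.48 ± 0.17 and Cldn14, a tight junction claudin, by 1.48 ± 0.16. The call of Cldn14 was lost with normexp background correction. Htatip2 rose by 0.67 ± 0.06 and Psmd5, a proteasome assembly chaperone, by 0.63 ± 0.07. Lgals4, a galectin of epithelia, fell by 1.16 (SE 0.08) and Mdk, midkine, by 0.88 (SE 0.08).

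An average near 0 could also stand for effects that cancel. In 102 genes (0.496%) the difference passed in both states singly in opposite ways, against 345 (1.68%) the same way. None of 22 cell cycle genes was called on average (against 6.16% of all genes tested). Yet their median difference was -0.71 in normal and 1.16 in IRI kidneys. An interaction passed for 14 of them, against 6.48% of all genes. Mki67, a proliferation marker named after its values were seen, stood at -1.22 and -0.90 for WT against -2.28 and -2.58 for KD in uninjured kidneys, and 1.62 and 0.58 against 2.15 and 2.80 in injured ones. The averaged difference of Mki67 was 0.01 ± 0.55 (adjusted p 0.996).

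**Figure D5:**
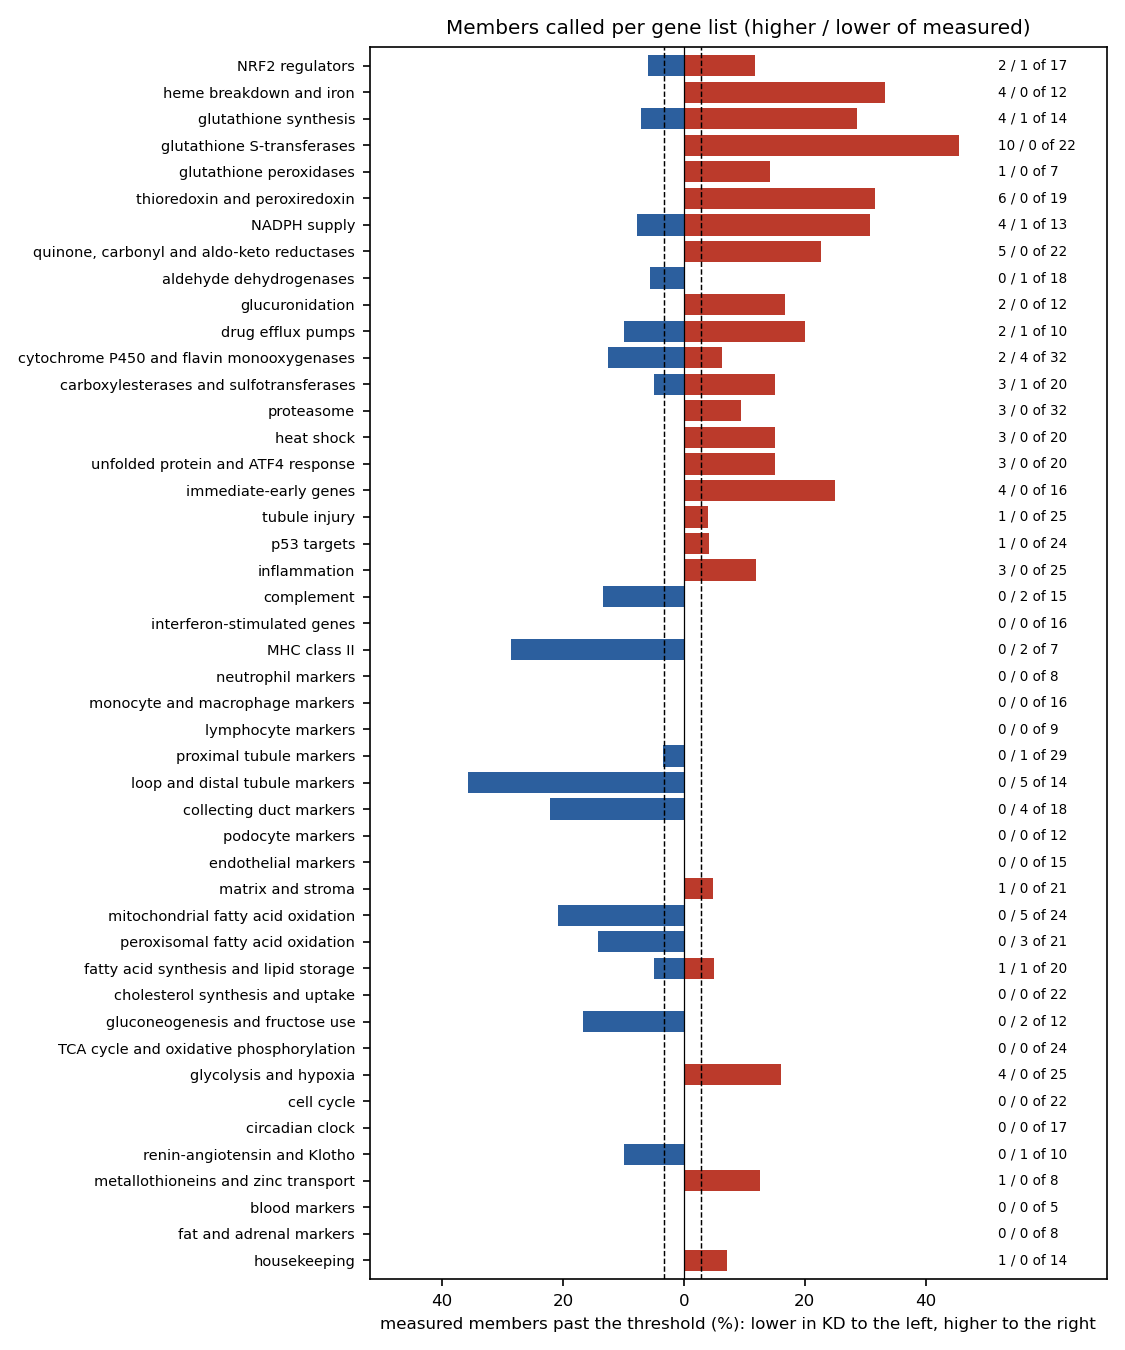
Share of measured members called in each of 46 gene lists (horizontal axis, percent), higher in KD to the right and lower to the left, with counts at the right edge. Dashed lines mark 2.77% and 3.38% of all genes tested, and glutathione S-transferases (10 of 22) and loop and distal tubule markers (5 of 14) have the longest bars.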

How the data were processed

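Messenger RNA of 8 kidney samples was measured on 1-colour Agilent mouse arrays labelled with Cy3. Per the file headers, the authors' scans were read with Agilent Feature Extraction 10.7.3.1, and the processed intensity of each spot is background-subtracted. The deposited log2 value table holds the authors' processed values of the same arrays, centred per probe, and was used as an alternative only. Processed intensities were put on the log2 scale relative to each array's 75th percentile, control and outlier spots were left out, and replicate spots were averaged. Probes stayed in where 1 or more groups had them well above background on each of their arrays. Of 41174 probes 27409 were kept, and the brightest kept probe stood for each of 20581 genes. Genes were named through RefSeq where the probe's accession matched, for 26690 probes, and otherwise kept the accession.

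The fit was additive for injury state and genotype in limma 3.58.1 (R 4.3.3) with an intensity trend, and p-values were adjusted by Benjamini-Hochberg over all genes. Fits within a state and of the interaction used the 4 group means. The fit was tested on simulated data. Array numbers mark a shared slide per the file headers. Deviations of same-numbered arrays from their group means correlated at r = 0.0216 to 0.262.

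Genes were named by rule: the 15 largest changes each way, the 5 largest bounds each way, up to 3 per list each way, and the largest change per list that did not pass. Other list members and genes said so in the text were named after their values were seen. Members and lists were chosen with earlier results of these data known. Background correction with normexp used the median spot signal, since no mean signal was used here. A result on 1 gene is not reported here.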

Additional observations from a re-analysis of the deposited data

Results flagged for a closer look

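With 2 arrays per group, single arrays could not be tested as outliers. The following genes had a knockdown difference that was unequal in normal and IRI kidneys, by the interaction in limma (adjusted p under the threshold). Values are KD minus WT in IRI minus that in normal kidneys, on the log2 scale.

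Among genes higher in KD on average, the difference was smaller after injury for Hmox1 (-3.26), Tnfrsf12a (-1.25), Gdf15 (-1.13), Gclc (-1.07), Creld2 (-0.91) and Cyp7b1 (-0.68). It was larger after injury for Gpx2 (1.91), Ugt2b35 (1.90), Gsta4 (1.14), Akr1c19 (0.81) and Gstm2 (0.65). The value of Ugt2b35 rests on WT arrays that were all not well above background.

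Among genes lower in KD on average, the interaction was 1.71 for Lrrc66 and 1.33 for Nacad, both further below WT in normal kidneys, and it was -0.49 for Scnn1g, further below WT after injury. The averaged call of Nacad was lost with slide as a block (adjusted p 0.0572) and without each array but WT IRI replicate 2. Egr2 (-2.43), Hspb1 (-1.87), Idh1 (-0.96) and Abcc1 (0.94) had an interaction without passing on average. The cell cycle genes Top2a (3.01), Mki67 (2.75) and Mcm2 (1.63) were lower in KD in normal and higher in IRI kidneys.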

How the results depend on the processing

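The precision is limited by 2 arrays per group. Against 1267 genes called (571 higher, 696 lower), normexp background correction gave 568 (285 and 283, with 525 the same way in both states) and no filter on dim probes gave 671 (323 and 348, all 671 the same way). Group means with the interaction in the model gave 3328 (1382 and 1946, with 2551 the same way), and no injury covariate gave 4 (3 and 1, all 4 the same way). A minimum of 2-fold left 186, an adjusted p of 0.01 left 93, and passing in each state singly left 345. With replicate number, which is the slide, as a block it was 902, and 116 of 145 named called genes passed. Leaving out 1 array gave 86 to 1304 genes, with 52 to 589 higher, 33 to 715 lower and 86 to 1304 the same way. It gave 120 to 3883 in normal kidneys, 24 to 1531 in IRI kidneys and 6 to 1715 for the genotype by injury interaction. Within normal kidneys the count of 3116 became 1342 with normexp and 2038 with no filter. In IRI kidneys 1452 became 916 with no intensity trend. The genotype by injury interaction count of 1334 became 560 with no filter and 753 with no intensity trend. Of the 145 named called genes, none reversed under the alternatives run, and 87 passed with normexp, 103 with no filter and 3 with no injury covariate. The causes were not tested.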

Other observations

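Of the 20 genes nearest to Keap1 in the RefSeq order of chromosome 9, 17 were measured. By limma none passed the averaged fit, and 3 had an unadjusted p under 0.05, as did 5320 of all 20581 genes tested. Their differences ran from -0.31 to 0.28 on the log2 scale.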
